A study of Mus musculus with 17 samples.

Results

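C-type lectin receptors other than the markers that separate cDC1s from cDC2s were examined in sorted splenic dendritic cells. The 35 genes were taken by name from the 31091 gene identifiers of the count table and cover the mannose receptor family, the dectin-2 and dectin-1 gene clusters, the DC-SIGN family with langerin, the Clec2 family with CD69, the NK receptor genes Klrd1 and Klrk1, and a few lectin-like proteins. Of these genes, 27 were measured, 5 were low, with a mean under 10 counts in every group, and 3 were too rare, with 3 counts or fewer in every sample.

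Spleens came from 8-week-old female C57BL/6JRj mice that carried B16 tumors secreting FLT3 ligand, which expands dendritic cells, and spleens of several mice were pooled in an experiment. CD11c+ cells were enriched and cultured for 6 h with medium of TC-1 cells, a mouse lung carcinoma line, and cDC1s and cDC2s were then sorted from that culture. The paper's culture protocol, to which its RNA-seq methods refer, added the cytokine GM-CSF for survival of the CD11c+ cells. WT medium came from live TC-1 cells, BimS medium from TC-1-iBimS cells, which died by apoptosis upon induction of the BH3-only protein BimS, and RIPK3 medium from TC-1-iRIPK3 cells, which died by necroptosis upon induction of an oligomerizing RIPK3. All TC-1 lines, WT included, had received the inducer cumate, the iBimS and iRIPK3 lines were single clones, and the debris was not separated from the soluble content of the medium. Each of the 6 groups held 3 samples except cDC2s with RIPK3 medium, which held 2. No source states that same-group samples came from separate mice, so p-values measure the spread between these samples, which may be technical in part.

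C-type lectin receptors carry a domain that in the classical members binds sugars in a calcium-dependent manner and in others has come to bind proteins or lipids. The activating members of the dectin-2 and dectin-1 clusters signal through the kinase Syk, either over the adaptor FcR-gamma or over a motif in their own tail, while inhibitory members carry motifs that recruit the phosphatases SHP-1 and SHIP-1. Dendritic cells are known to use these receptors to sense fungi, mycobacteria and dead cells and to take up antigen, and the Clec2 proteins are ligands that tell NK cells about the state of the cell that carries them.

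Libraries held between 16095159 and 21645289 counts on genes. The sorted cells carried the markers of their label, since the 6 cDC1 markers (Clec9a, Xcr1, Wdfy4, Itgae, Cd8a, Batf3) summed to 1049.9 to 1177 CPM in cDC1s and 65.6 to 107 CPM in cDC2s, and the 6 cDC2 markers (Sirpa, Clec10a, Itgam, Clec4a1, Cd209a, Cd4) to 276 to 346 CPM in cDC2s and 2.14 to 3.81 CPM in cDC1s. CPM is the count of a gene per 1000000 counts after TMM scaling of the library total, a level that does not correct for gene length. A list of 12 macrophage markers, 11 of them in the table, summed to more with debris than with WT medium (10.8 to 17.1 CPM with WT, 78.7 to 109 with BimS and 53.6 to 70.7 with RIPK3 medium in cDC1s). That rise lay in Spic, which averaged 7.84 CPM with WT and 92.7 CPM with BimS medium, and without Spic the list summed to 3.46 to 7.90, 1.68 to 2.73 and 3.29 to 5.70 CPM in cDC1s and to 5.18 to 13.6, 5.35 to 6.02 and 6.66 to 9.55 CPM in cDC2s. Of 13 markers of fibroblasts and adherent tumor cells, 12 were in the table, and their sum moved in cDC2s with Thbs1 (49.2 CPM with WT, 144 with BimS and 138 with RIPK3 medium). Without Thbs1 it was 2.31 to 4.59 CPM in all cDC2 samples. Of 5 plasmacytoid DC markers, the sum was 54.3 to 66.0 CPM in cDC1s and 173 to 217 CPM in cDC2s, and that difference lay in Tcf4 (43.0 CPM in cDC1s and 177 CPM in cDC2s with WT medium), while the defining marker Siglech averaged at most 0.565 CPM in any group and Ly6d had 3 counts or fewer in every sample. The part of such cells in the results was not tested.

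Which of these receptors each cell type expressed was the first comparison, with the medium as a further term in the fit. Of 31 genes tested between cDC1s and cDC2s, 25 passed the test, 4 higher and 21 lower in cDC1s, and 59.8% of all genes tested passed. The test was edgeR's quasi-likelihood test with Benjamini-Hochberg adjustment over all genes and a threshold of 0.05, as for every adjusted p below. The median log2 fold change of the 31 genes was -1.79, beside 0.03 for all genes. In such sorted bulk samples, fewer cells with a transcript and less RNA per cell cannot be told apart.

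**Figure D1:**
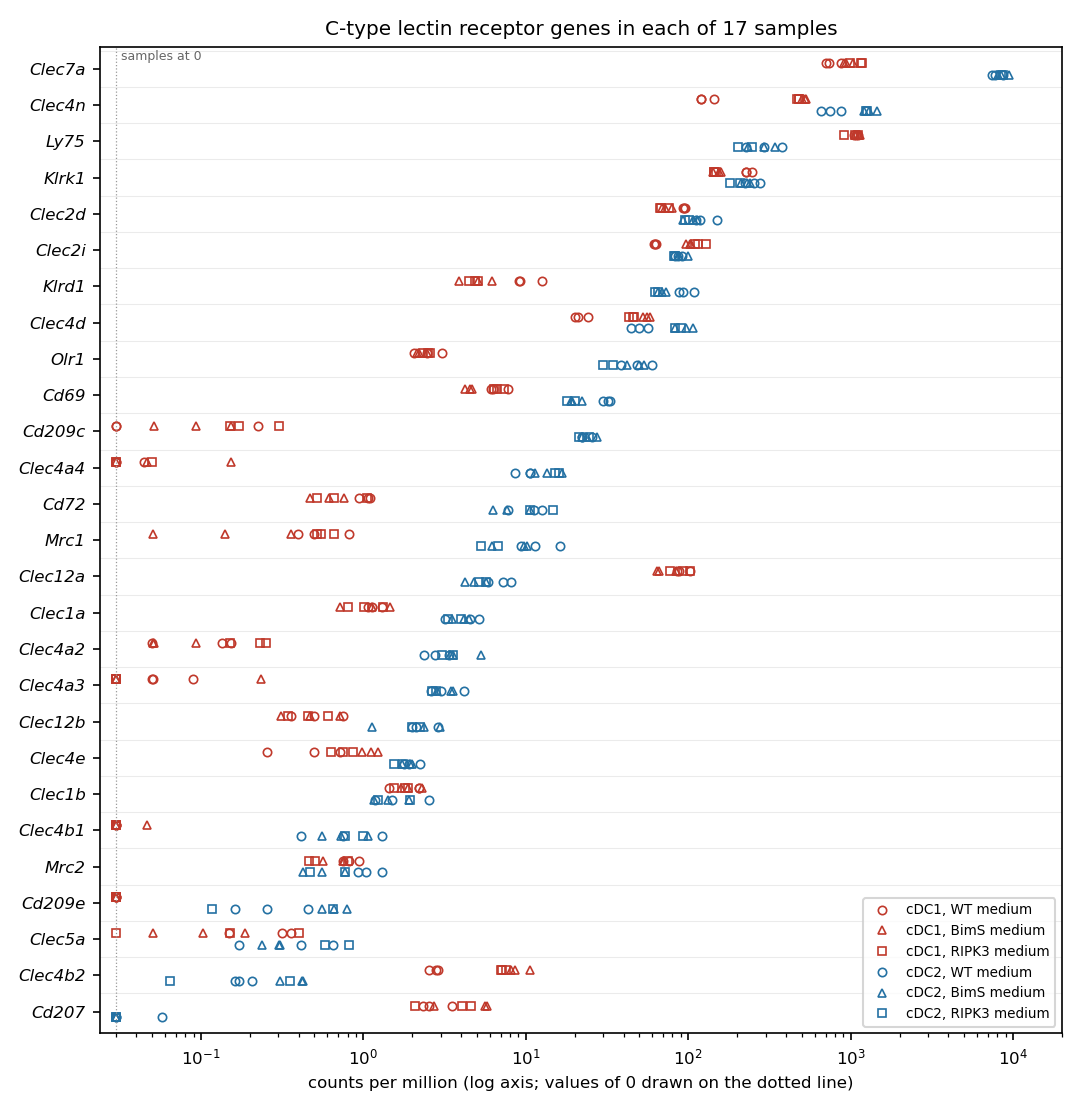
Levels of the 27 measured genes in each of the 17 samples, in CPM on a log axis, with red symbols for cDC1s, blue symbols for cDC2s and the symbol shape for the medium. The 2 cell types occupy separate ranges for most genes, with cDC1s to the right for Ly75, Clec12a, Clec4b2 and Cd207.

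The 4 genes higher in cDC1s came from 4 families. Ly75 encodes DEC-205, an endocytic receptor of the mannose receptor family that delivers antigen for cross-presentation. It ranged from 903 to 1138 CPM (median 1077) in the 9 cDC1 samples and from 203 to 377 CPM (median 269.7) in the 8 cDC2 samples, which gave a log2 ratio of 1.98 (SE 0.106, adjusted p = 1.48e-10). Clec12a, the inhibitory receptor MICL that binds uric acid crystals, ranged from 64.1 to 103 CPM (median 84.7) against 4.20 to 8.14 CPM (median 5.70), which gave a log2 ratio of 3.85 (SE 0.0924, adjusted p = 1.03e-19). Neither gene overlapped between the cell types.

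Clec4b2, which lies in the dectin-2 cluster, was the only tested gene of that cluster to be higher in cDC1s. It ranged from 2.54 to 10.6 CPM (median 7.13) in cDC1s and from 0.0647 to 0.426 CPM (median 0.255) in cDC2s, which gave a log2 ratio of 4.51 (SE 0.166, adjusted p = 1.11e-20). Cd207 encodes langerin, the receptor of Birbeck granules. It ranged from 2.07 to 5.75 CPM (median 3.51) in cDC1s and gave 1 count in all cDC2 samples together against 660 counts in cDC1s, a count ratio of 518 with a 95% interval of 92.6 to 20500 (adjusted p = 1.58e-15). This interval and those below cover counting error only.

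Among the 21 genes lower in cDC1s, Clec7a was the most abundant. It encodes dectin-1, the receptor of fungal beta-glucan, at chr6:129438554-129449742 on the minus strand of GRCm39. Its level ranged from 707 to 1169 CPM (median 937) in cDC1s and from 7364 to 9485 CPM (median 8421) in cDC2s, which gave a log2 ratio of -3.18 (SE 0.067, adjusted p = 2.56e-20). Olr1, the scavenger receptor LOX-1 for oxidized lipoproteins, lies 12.5 kb away and ranged from 2.04 to 3.05 CPM (median 2.47) against 29.8 to 59.7 CPM (median 45.2), which gave a log2 ratio of -4.16 (SE 0.115, adjusted p = 5.69e-18). The same cluster thus held a gene higher in cDC1s (Clec12a) and genes higher in cDC2s. Clec12b, an inhibitory receptor, ranged from 0.309 to 0.747 CPM (median 0.467) in cDC1s and from 1.13 to 2.95 CPM (median 2.17) in cDC2s (log2 fold change -2.13, adjusted p = 1.02e-10). Clec1a ranged from 0.713 to 1.45 CPM (median 1.12) against 3.18 to 5.13 CPM (median 4.06) (log2 fold change -1.86, adjusted p = 5.19e-13), and 35.09% of its 54-base stretches also lie in the neighbouring genes Clec9a and Clec1b, so that its reads may be shared. Clec1b, the podoplanin receptor CLEC-2, averaged 1.88 ± 0.296 CPM (SD, n = 9) in cDC1s and 1.61 ± 0.483 CPM (SD, n = 8) in cDC2s and did not pass the test (log2 fold change 0.24, SE 0.16, adjusted p = 0.207), though it did with limma on log2(count + 1) (0.45, adjusted p = 0.0243) and without cDC2 WT replicate 3 (0.36, adjusted p = 0.0461). It shares 22.29% of its stretches, mostly with Clec1a on the other strand. Clec1b was highest, at 2.54 CPM, in cDC2 WT replicate 3, which also had the highest sum of the 4 measured platelet markers, 16.7 CPM, and the part of platelets in that value was not tested.

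Of the 8 genes of the dectin-2 stretch, chr6:122929380-123266829, 7 were lower in cDC1s. The DCIR genes Clec4a2, Clec4a3 and Clec4a4, whose products mostly carry an inhibitory motif, were at the edge of detection in cDC1s. Clec4a4, the DCIR2 antigen that marks splenic cDC2s, ranged from 8.57 to 16.8 CPM (median 12.4) in cDC2s and gave at most 3 counts in any cDC1 sample, a count ratio of 377 (95% interval 173 to 1030, adjusted p = 1.51e-24). Clec4a2 ranged from 2.36 to 5.31 CPM (median 3.38) in cDC2s and from 0.0498 to 0.253 CPM (median 0.135) in cDC1s (log2 fold change -4.67, adjusted p = 1.36e-17). Clec4a3 ranged from 2.62 to 4.19 CPM (median 2.94) in cDC2s and from 0 to 0.234 CPM (median 0) in cDC1s (log2 fold change -5.77, adjusted p = 8.00e-17). Clec4b1, the activating receptor DCAR, ranged from 0.410 to 1.29 CPM (median 0.761) in cDC2s and gave 115 counts there and 1 in cDC1s, a count ratio of 147 (25.8 to 5840, adjusted p = 6.33e-12). Clec4a4 shares 12.66% and Clec4b1 6.33% of its stretches with Clec4a2, so that these counts are uncertain to that extent.

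Clec4n, Clec4d and Clec4e, which signal over FcR-gamma, were measured in both cell types. Clec4n encodes dectin-2, which binds fungal mannans, and ranged from 120.1 to 534 CPM (median 479) in cDC1s and from 660.2 to 1462 CPM (median 1228) in cDC2s, which gave a log2 ratio of -1.79 (SE 0.171, adjusted p = 3.10e-07), or -2.56 (adjusted p = 4.64e-15) with WT medium alone. Clec4d encodes MCL and ranged from 20 to 57.9 CPM (median 45.7) against 44.6 to 107 CPM (median 82.8), which gave a log2 ratio of -0.97 (SE 0.0656, adjusted p = 1.19e-12). Clec4e encodes Mincle, a receptor of mycobacterial glycolipids and of the nuclear protein SAP130 of dead cells, and ranged from 0.254 to 1.22 CPM (median 0.753) in cDC1s and from 1.55 to 2.24 CPM (median 1.84) in cDC2s (log2 fold change -1.25, SE 0.182, adjusted p = 5.34e-07, and -1.96, adjusted p = 2.07e-05, with WT medium alone). The ranges of Clec4d overlapped between the cell types, those of Clec4n and Clec4e did not.

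In the mannose receptor family, Mrc1 (CD206) went the other way from Ly75. It ranged from 0.0509 to 0.814 CPM (median 0.494) in cDC1s and from 5.27 to 16.3 CPM (median 9.55) in cDC2s, which gave a log2 ratio of -4.36 (SE 0.245, adjusted p = 8.60e-12). Mrc2, the collagen receptor Endo180, averaged 0.706 ± 0.161 CPM against 0.782 ± 0.298 CPM and did not pass the test (log2 fold change -0.10, SE 0.201, adjusted p = 0.714). In the DC-SIGN family on chromosome 8, Cd209c ranged from 21.3 to 27.6 CPM (median 23.2) in cDC2s and from 0 to 0.303 CPM (median 0.151) in cDC1s (log2 fold change -7.45, SE 0.161, adjusted p = 1.43e-26), with 15.65% of its stretches shared with other annotated genes. Cd209d and Cd209e gave no count in any cDC1 sample and 31 and 63 counts in cDC2s, which is at least 13.2-fold and at least 26.8-fold lower in cDC1s against a floor of 3 counts over the group. These genes did not enter the fit of all samples, because too few samples held a count. Cd209b (SIGNR1) and Clec4g (LSECtin) gave 1 count each in cDC1s and 18 and 20 in cDC2s, at 1 to 4 and 1 to 5 counts per cDC2 sample (count ratios 22.9, 3.62 to 956, and 25.5, 4.08 to 1060).

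The receptors first described on NK cells were measured in both dendritic cell types. Klrd1 (CD94) ranged from 3.87 to 12.6 CPM (median 5.09) in cDC1s and from 62.7 to 108 CPM (median 71.3) in cDC2s, which gave a log2 ratio of -3.54 (SE 0.0982, adjusted p = 5.04e-17). Klrk1 (NKG2D) ranged from 143 to 246 CPM (median 156) in cDC1s and from 181 to 278 CPM (median 227) in cDC2s, which gave a log2 ratio of -0.36 (SE 0.0606, adjusted p = 1.39e-05), but with WT medium alone the log2 difference was -0.10 (adjusted p = 0.361). The 7 NK cell markers Ncr1, Klrb1c, Klra8, Klre1, Gzma, Prf1 and Eomes summed to at most 1.08 CPM in any cDC1 sample and 1.95 CPM in any cDC2 sample, and Ncr1, Klrb1c, Klra8 and Prf1 had 3 counts or fewer in every sample.

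Cd69, which holds lymphocytes in tissue by pulling S1PR1 from the surface, ranged from 4.25 to 7.82 CPM (median 6.31) in cDC1s and from 18 to 33.1 CPM (median 21.2) in cDC2s (log2 fold change -2.0, SE 0.0901, adjusted p = 2.51e-17). Clec2d encodes Clr-b, the ligand of the inhibitory NK receptor NKR-P1B, and ranged from 67.4 to 95 CPM (median 75.9) in cDC1s and from 92.4 to 149 CPM (median 109) in cDC2s, with overlap (log2 fold change -0.47, SE 0.0526, adjusted p = 4.22e-09). Clec2i encodes Clr-g, a ligand of NKR-P1F, and averaged 94.0 ± 25.2 CPM (SD, n = 9) against 87.3 ± 5.8 CPM (SD, n = 8) (log2 fold change 0.03, SE 0.116, adjusted p = 0.835). With WT medium alone Clec2i was lower in cDC1s by a log2 difference of -0.47 (adjusted p = 2.43e-05). Cd72, a receptor of the semaphorin Sema4d, ranged from 0.467 to 1.10 CPM (median 0.764) in cDC1s and from 6.33 to 14.7 CPM (median 10.6) in cDC2s (log2 fold change -3.68, adjusted p = 8.42e-18), and 49.84% of its stretches lie opposite Tesk1 on the other strand, so that its counts are uncertain. Clec5a (MDL-1) ranged from 0 to 0.403 CPM (median 0.151) against 0.172 to 0.820 CPM (median 0.358) (log2 fold change -1.20, adjusted p = 0.00800), and with WT medium alone -0.58 (adjusted p = 0.461).

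**Figure D2:**
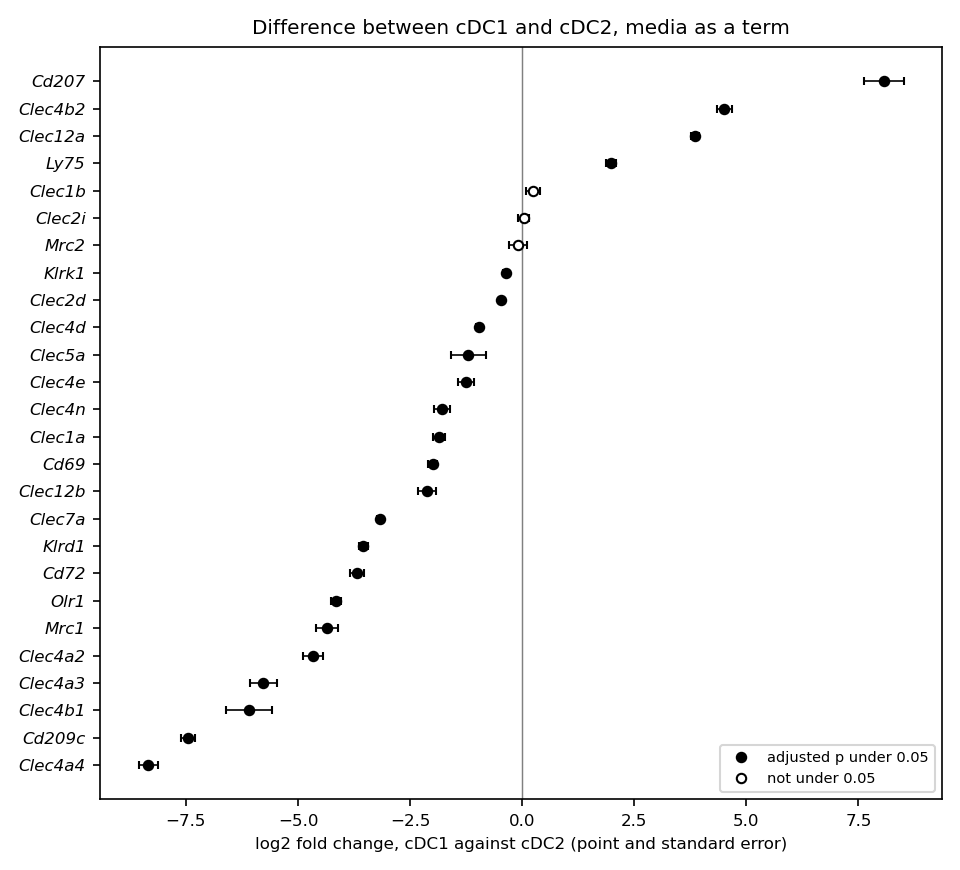
Log2 fold change of cDC1s against cDC2s for the 26 measured genes that entered the fit of all samples, with the standard error as a bar and filled points for an adjusted p under 0.05. Cd207, Clec4b2, Clec12a and Ly75 lie to the right of 0, Clec1b, Clec2i and Mrc2 near 0 with open points, and the others to the left. The fitted values of Cd207, Clec4b1 and Clec4a4, which had at most 6 counts in all samples of a cell type, depend on the prior count.

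Per length, the receptors formed a steep order that differed between the cell types. As RPKM, CPM divided by the kilobases of exon, the level in cDC1s with WT medium was 291 for Clec7a, 115 for Ly75, 90.3 for Clec4n, 77.6 for Clec2d, 32.5 for Klrk1, 20.1 for Clec2i, 15.6 for Clec12a and 13.5 for Clec4d. In cDC2s with WT medium it was 3001 for Clec7a, 534 for Clec4n, 104 for Clec2d, 71.9 for Klrd1, 35 for Klrk1, 32.1 for Ly75, 31.3 for Clec4d and 28.0 for Clec2i. With WT medium dectin-1 thus led in both cell types, and Ly75 came next in cDC1s. In cDC2s the averages of Klrk1, Ly75, Clec4d and Clec2i lay close together. Ly75 spread there from 228 to 377 CPM between samples, so its place among them is not settled. The length used was that of all exons annotated in GENCODE M39, not of the transcripts present. With debris the order in cDC1s was another, since Clec4n had 366 ± 10.6 RPKM (SD, n = 3) with BimS medium, within the spread of Clec7a at 364 ± 25.7 and above Ly75 at 119, and 335 RPKM with RIPK3 medium, beside 419 for Clec7a and 110.4 for Ly75.

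A part of these receptors differed in cDC1s between medium of dying tumor cells and medium of live cells. Debris, soluble content and clone cannot be told apart in these media, and "with debris" stands for BimS or RIPK3 medium throughout. Some markers of other cells moved with the same media in cDC1s. The 4 measured platelet markers summed to 4.48 to 6.00 CPM with WT, 7.38 to 8.13 with BimS and 6.78 to 8.14 with RIPK3 medium, a change that lay in Pf4 (0.386, 3.81 and 3.06 CPM), while Gp6 and Gp9 had 3 counts or fewer in every cDC1 sample. The 6 endothelial markers summed to 18 to 20.2, 10.1 to 12.8 and 11.6 to 14.8 CPM, mostly from Pecam1 (18.2, 10.6 and 11.3 CPM), with Tek and Lyve1 at 3 counts or fewer. Monocyte and neutrophil markers summed to 4.08 to 4.78, 3.67 to 5.66 and 6.27 to 8.08 CPM. Fibroblast and tumor cell markers without Thbs1 summed to 3.41 to 3.79, 3.56 to 3.71 and 4.03 to 4.92 CPM. T cell and B cell sums were at most 1.48 and 1.27 CPM in any cDC1 sample. Their part in the results was not tested. With BimS medium against WT medium, 10 of 25 genes tested passed, 5 higher and 5 lower, beside 13.2% of all genes. With RIPK3 medium against WT medium, 8 of 25 passed, 5 higher and 3 lower, beside 16.5% of all genes. The median log2 fold change of the 25 genes was -0.08 and -0.03, beside 0.00 and -0.01 for all genes. Both comparisons use the same WT samples.

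The rises in cDC1s were led by neighbours in the dectin-2 stretch. Clec4n read 120.1, 144 and 121 CPM with WT medium, 534, 520.0 and 504 CPM with BimS medium and 466, 479 and 481 CPM with RIPK3 medium. Every sample with debris was above every WT sample, with log2 fold changes of 2.02 (SE 0.0561, adjusted p = 7.88e-24) for BimS and 1.89 (SE 0.0559, adjusted p = 3.08e-23) for RIPK3. Clec4b2 read 2.89, 2.54 and 2.78 CPM with WT, 10.6, 8.13 and 8.56 CPM with BimS and 7.03, 7.53 and 7.13 CPM with RIPK3 medium. Its log2 fold changes were 1.73 (SE 0.144, adjusted p = 1.05e-11) and 1.40 (SE 0.15, adjusted p = 3.20e-09), again without overlap. Clec4d read 20.9, 24.3 and 20 CPM with WT, 57.9, 52.5 and 55.4 CPM with BimS and 43.2, 45.7 and 46.5 CPM with RIPK3 medium, so that the 3 media formed 3 separate levels. Its log2 fold changes were 1.35 (SE 0.0711, adjusted p = 4.93e-17) and 1.05 (SE 0.0722, adjusted p = 4.57e-14).

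Clec4e, the gene next to Clec4d, had a much lower level. It read 0.498, 0.254 and 0.719 CPM with WT, 1.22, 1.12 and 0.979 CPM with BimS and 0.860, 0.753 and 0.633 CPM with RIPK3 medium, which is 5 to 24 counts per sample. The rise with BimS medium passed (log2 fold change 1.14, SE 0.349, adjusted p = 0.0222) and lost significance without either of cDC1 WT replicates 1 and 2 or BimS replicates 1 and 2 (log2 fold changes 0.85 to 1.14, adjusted p = 0.0573 to 0.158) and with DESeq2 on all samples (1.16, adjusted p = 0.0519), while the value with RIPK3 medium was 0.59 (SE 0.377, adjusted p = 0.354).

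Clec4b2, Clec4n and Clec4d follow each other on the plus strand, with gaps of 25.2 kb and 15.1 kb between them, and Clec4e lies 6.52 kb behind Clec4d on the minus strand. The 250 bases before the start of their canonical transcript are shown because these 3 genes rose together, at chr6:123149600-123149849 for Clec4b2, chr6:123206552-123206801 for Clec4n and chr6:123238826-123239075 for Clec4d, all read on the plus strand of GRCm39, 5′ to 3′. Capitals mark the longest run that all 3 share, of 14 bases. Annotation and sequence came from GENCODE M39 on GRCm39.
Clec4b2: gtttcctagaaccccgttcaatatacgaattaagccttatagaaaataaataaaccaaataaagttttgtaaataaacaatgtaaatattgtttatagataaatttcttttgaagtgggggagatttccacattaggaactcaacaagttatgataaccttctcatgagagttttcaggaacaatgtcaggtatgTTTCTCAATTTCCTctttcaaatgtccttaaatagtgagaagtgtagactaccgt
Clec4n: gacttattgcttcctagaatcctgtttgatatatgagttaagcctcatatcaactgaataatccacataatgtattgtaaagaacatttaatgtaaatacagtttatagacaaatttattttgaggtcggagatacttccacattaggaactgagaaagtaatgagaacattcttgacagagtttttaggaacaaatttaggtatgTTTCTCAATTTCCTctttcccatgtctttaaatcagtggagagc
Clec4d: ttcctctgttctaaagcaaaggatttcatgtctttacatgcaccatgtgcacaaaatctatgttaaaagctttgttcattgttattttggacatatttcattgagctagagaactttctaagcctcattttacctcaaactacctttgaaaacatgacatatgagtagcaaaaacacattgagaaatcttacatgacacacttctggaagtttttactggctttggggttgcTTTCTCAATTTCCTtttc

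The shared run TTTCTCAATTTCCT began 55, 44 and 18 bases before the start of Clec4b2, Clec4n and Clec4d, in that order. Among 21757 such stretches of protein-coding genes it occurred in 3, 0.0138%, on either strand, and these were the 3 genes themselves. The stretches of Clec4b2 and Clec4n were 74.1% identical over their alignment, the highest value among the 28 pairs within the dectin-2 stretch (median 50.6%, lowest 45.7%) and above each of the 533 other pairs of members (median 48.8%, highest 54.7%). Clec4d and Clec4n were 49.4% identical, within the range of the other pairs. The run was found by comparing these genes, and Clec4b1, whose stretch was 61.9% identical to that of Clec4b2, does not hold it. Of 7 motifs searched on both strands, 1 occurred in the 3 stretches, the ISRE core GAAANNGAA in Clec4d, where it overlaps the shared run and spans the bases 9 to 1 before the start. That core occurs in 7.56% of all stretches and in those of Clec4b1, Clec2d and Clec12b among the members. The other motifs were AP-1 (TGANTCA, 6.18% of all stretches), the antioxidant response element (TGACNNNGC, 9.70%), NF-kB (GGGANTTTC, 1.08%), PU.1 (GAGGAAG, 10.3%), C/EBP (TTGCNNAA, 9.34%) and CRE (TGACGTCA, 1.70%). A match is a description of the letters in this window.

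The Clec2 genes of the NK gene complex moved in opposite directions in cDC1s. Clec2i read 61.6, 62.5 and 63.7 CPM with WT, 103, 97.5 and 102 CPM with BimS and 115, 110.4 and 129 CPM with RIPK3 medium. The order WT, BimS, RIPK3 held for every sample, with log2 fold changes of 0.69 (SE 0.0573, adjusted p = 8.98e-12) and 0.92 (SE 0.0572, adjusted p = 4.03e-15) against WT. Clec2d read 94.8, 92.8 and 95 CPM with WT, 79.4, 71.9 and 69.2 CPM with BimS and 67.4, 68.0 and 75.9 CPM with RIPK3 medium. It fell by 0.36 (SE 0.0584, adjusted p = 1.72e-05) and by 0.42 (SE 0.0587, adjusted p = 7.87e-07) on the log2 scale. Clec2g, between them on the chromosome, was too rare to measure. Cd69 read 7.82, 6.31 and 6.11 CPM with WT, 4.63, 4.25 and 4.54 CPM with BimS and 7.38, 6.37 and 6.67 CPM with RIPK3 medium. It fell with BimS medium alone (log2 fold change -0.59, SE 0.139, adjusted p = 0.00233), and with RIPK3 medium its value was 0.02 (SE 0.132, adjusted p = 0.968).

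Both NK receptor genes fell in cDC1s. Klrd1 read 12.6, 9.16 and 9.07 CPM with WT, 6.16, 5.09 and 3.87 CPM with BimS and 4.5, 5.07 and 4.89 CPM with RIPK3 medium. The log2 fold changes were -1.02 (SE 0.148, adjusted p = 4.13e-06) and -1.09 (SE 0.151, adjusted p = 1.41e-06). Klrk1 read 228, 228 and 246 CPM with WT, 143, 159 and 156 CPM with BimS and 144, 147 and 144 CPM with RIPK3 medium. Its log2 fold changes were -0.62 (SE 0.0506, adjusted p = 6.55e-12) and -0.69 (SE 0.0508, adjusted p = 3.41e-13), with no overlap between WT and debris for either gene. The sum of the NK cell markers was 0.697 to 1.08 CPM with WT, 0.608 to 0.917 with BimS and 0.152 to 0.575 with RIPK3 medium.

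Clec7a read 732, 867 and 707 CPM in cDC1s with WT, 937, 1038 and 908 CPM with BimS and 992, 1169 and 1156 CPM with RIPK3 medium. The rise passed for RIPK3 (log2 fold change 0.52, SE 0.095, adjusted p = 0.00482) but not without RIPK3 replicate 3 (0.49, adjusted p = 0.0593), and for BimS it was 0.32 (SE 0.0949, adjusted p = 0.0620), or 0.33 with the replicate number as a block (adjusted p = 5.62e-09), under which 17.9% of all genes passed. The BimS value passed under 8 alternatives in all, the block included. Clec12a averaged 92.0 ± 9.83 CPM with WT, 71.5 ± 11.3 with BimS and 90.9 ± 12.4 with RIPK3 medium (SD, n = 3), and the BimS value, -0.36 (adjusted p = 0.222), passed with the block (-0.37, adjusted p = 4.44e-10), with limma on log2(count + 1) (-0.41, adjusted p = 0.00316) and without BimS replicate 2 (-0.51, adjusted p = 0.0275). Mrc1 gave 1 to 16 counts per cDC1 sample and read 0.398, 0.814 and 0.494 CPM with WT, 0.0509, 0.140 and 0.361 CPM with BimS and 0.657, 0.552 and 0.518 CPM with RIPK3 medium. It fell with BimS medium (log2 fold change -1.60, SE 0.532, adjusted p = 0.0395). That call was lost without WT replicate 2 or 3 or without BimS replicate 1 or 2 (log2 fold changes -1.70 to -1.18, adjusted p = 0.0563 to 0.223) and in 1 fit of all 6 groups (-1.60, adjusted p = 0.136). Ly75 averaged 1074 ± 32.0, 1111 ± 40.0 and 1028 ± 109.8 CPM (SD, n = 3) and passed neither test (log2 fold changes 0.05 and -0.06, SE 0.0576 for both).

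**Figure D3:**
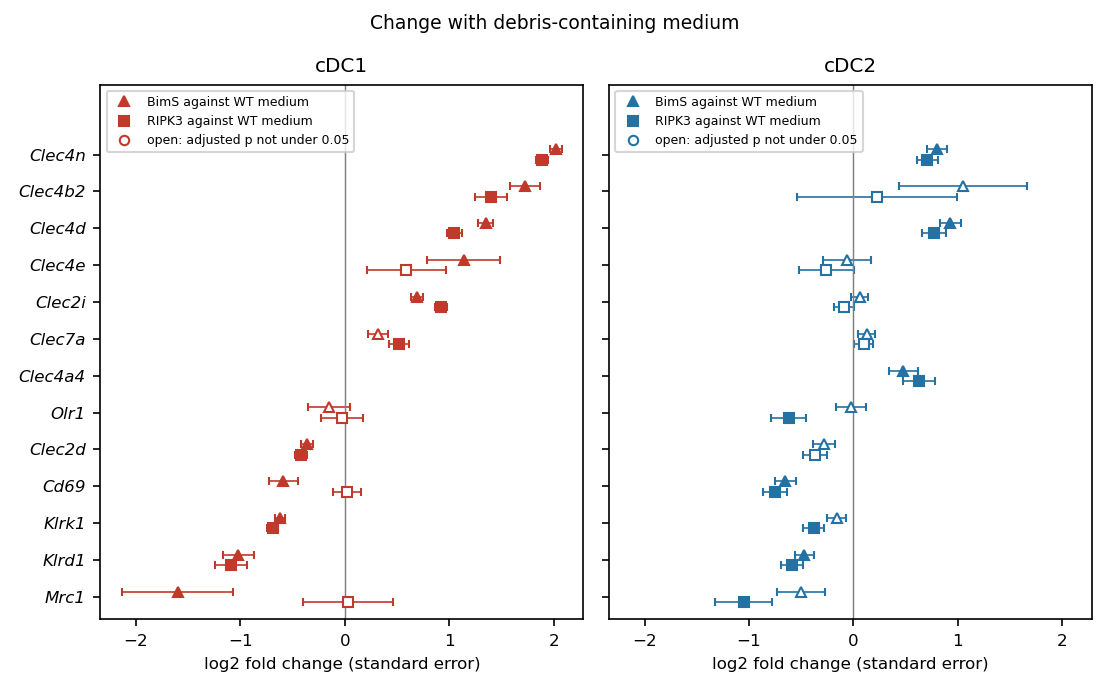
Log2 fold change against WT medium in cDC1s (left) and cDC2s (right) for the 13 genes that passed a test of BimS or RIPK3 against WT medium in either cell type, with standard errors as bars, triangles for BimS, squares for RIPK3 and open symbols for an adjusted p that was not under 0.05. Clec4n, Clec4b2 and Clec4d lie highest in cDC1s, at up to 2.02, and Clec2i lies at 0.69 and 0.92 in cDC1s and near 0 in cDC2s.

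In cDC2s the same media were compared, again with shared WT samples. Among markers of other cells, the endothelial sum was 22.1 to 25.6 CPM with WT, 15.3 to 17.8 with BimS and 20.1 to 22.4 with RIPK3 medium, and the plasmacytoid DC sum 192 to 217, 187 to 202 and 173 to 175 CPM, led by Pecam1 and Tcf4. The NK cell sum was 1.54 to 1.95, 1.52 to 1.95 and 0.776 to 1.52 CPM. The monocyte and neutrophil sum was 7.49 to 12.8, 8.09 to 14.5 and 11.9 to 12.6 CPM. T cell and B cell sums were at most 3.29 and 1.68 CPM in any cDC2 sample. Their part in the results was not tested. With BimS medium, 5 of 32 genes tested passed, 3 higher and 2 lower, beside 7.01% of all genes. With RIPK3 medium, 8 of 32 passed, 3 higher and 5 lower, beside 7.21% of all genes. Clec4n read 660.2, 748 and 869 CPM with WT, 1213, 1288 and 1462 CPM with BimS and 1262 and 1244 CPM with RIPK3 medium. Its log2 fold changes were 0.80 (SE 0.0935, adjusted p = 1.02e-05) and 0.71 (SE 0.103, adjusted p = 8.46e-05), with no overlap. Clec4d read 44.6, 49.7 and 56.5 CPM with WT, 83.2, 97.3 and 107 CPM with BimS and 82.3 and 90.5 CPM with RIPK3 medium. It rose by 0.93 (SE 0.104, adjusted p = 5.26e-06) and 0.77 (SE 0.114, adjusted p = 0.000117). The Clec4d level of cDC2s with WT medium lay within the range of cDC1s with debris, 43.2 to 57.9 CPM, while the Clec4n level of cDC1s with debris stayed below that of any cDC2 sample.

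Clec4a4 also rose in cDC2s. It read 8.57, 10.6 and 10.6 CPM with WT, 16.8, 11.3 and 13.5 CPM with BimS and 15.9 and 15.1 CPM with RIPK3 medium. The log2 fold changes were 0.48 (SE 0.142, adjusted p = 0.0450) and 0.63 (SE 0.156, adjusted p = 0.0140), and the BimS call was lost without any of 6 samples (WT replicate 1 or 2, BimS replicate 1 or 3, RIPK3 replicate 1 or 2), with log2 fold changes of 0.32 to 0.53 and adjusted p of 0.0713 to 0.283. It was also lost with a stricter filter on low counts (filterByExpr, 0.49, adjusted p = 0.0566), with limma on log2(count + 1) (0.40, adjusted p = 0.178) and with limma on log2 CPM (0.47, adjusted p = 0.0692). The RIPK3 call was lost without RIPK3 replicate 1 (0.60, adjusted p = 0.155) or 2 (0.68, adjusted p = 0.102) and with limma on log2(count + 1) (0.46, adjusted p = 0.116). Clec4b2, at 1 to 7 counts per cDC2 sample, averaged 0.180 ± 0.0227 CPM with WT and 0.383 ± 0.0674 CPM with BimS medium (SD, n = 3) and did not pass (log2 fold change 1.05, SE 0.616, adjusted p = 0.409). Clec4e averaged 1.97 ± 0.237, 1.89 ± 0.137 (SD, n = 3) and 1.65 ± 0.146 CPM (SD, n = 2), with log2 fold changes of -0.06 (SE 0.228) and -0.26 (SE 0.265).

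The falls in cDC2s covered Cd69 and Klrd1 with both media. Cd69 read 33.1, 29.8 and 32.2 CPM with WT, 22.3, 19.3 and 19.1 CPM with BimS and 20 and 18 CPM with RIPK3 medium. The log2 fold changes were -0.65 (SE 0.101, adjusted p = 0.000236) and -0.75 (SE 0.116, adjusted p = 0.000190). Klrd1 read 87.3, 92.3 and 108 CPM with WT, 65.0, 69.1 and 73.4 CPM with BimS and 62.7 and 65.6 CPM with RIPK3 medium. Its log2 fold changes were -0.47 (SE 0.0909, adjusted p = 0.00194) and -0.59 (SE 0.104, adjusted p = 0.000744). For both genes all samples with debris were below all WT samples. Klrk1 read 224, 254 and 278 CPM with WT, 209.9, 229.5 and 239 CPM with BimS and 181 and 208 CPM with RIPK3 medium, and passed with RIPK3 (log2 fold change -0.38, SE 0.102, adjusted p = 0.0234) and not with BimS medium (-0.16, SE 0.0902, adjusted p = 0.385). Clec2i read 85.9, 83.4 and 91.9 CPM with WT, 87.2, 86.0 and 99.5 CPM with BimS and 82.6 and 82.3 CPM with RIPK3 medium, with log2 fold changes of 0.06 (SE 0.0835) and -0.09 (SE 0.0939).

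**Figure D4:**
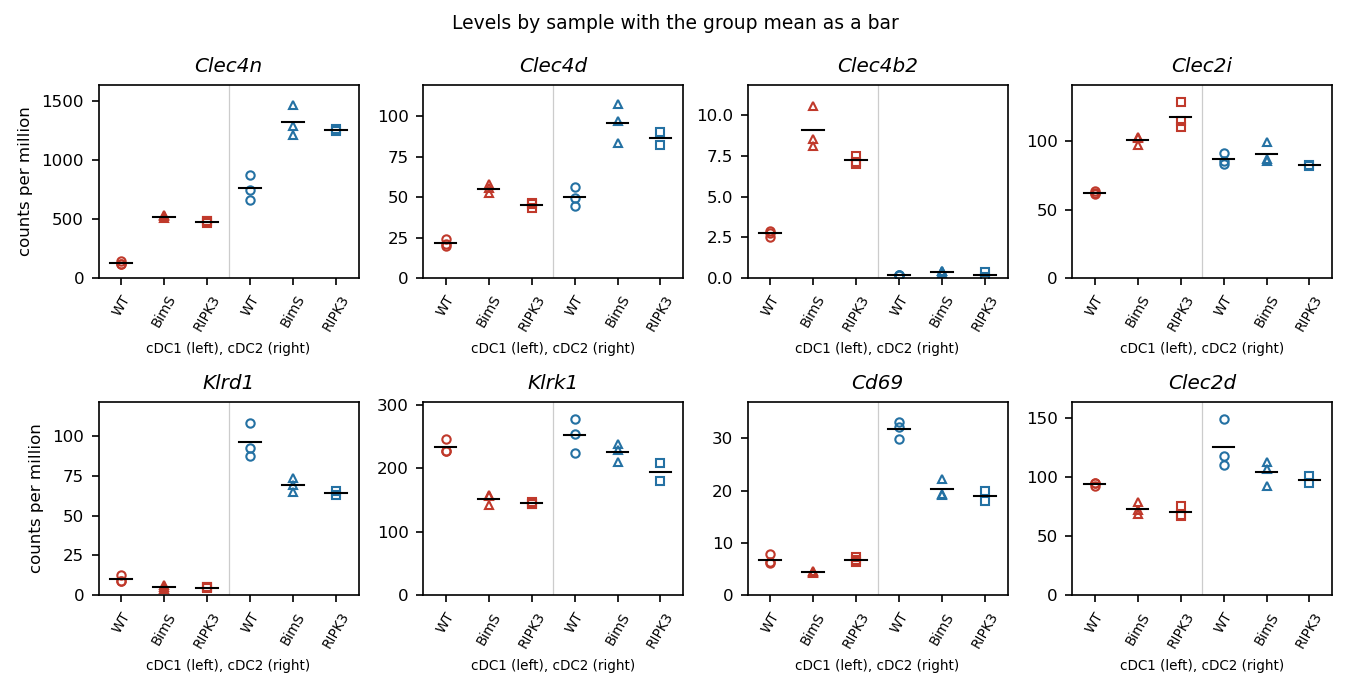
CPM of 8 genes in each sample, with cDC1s on the left (red) and cDC2s on the right (blue) of each panel and the group mean as a bar. Clec4n and Clec4d are higher with debris in both cell types, Clec2i is higher with debris in cDC1s and lies between 82.3 and 99.5 CPM in all cDC2 samples, and Klrd1 is lower with debris in both.

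Whether a response differed between the cell types was tested as an interaction, the log2 fold change in cDC1s less that in cDC2s. For BimS medium 3 of 31 genes passed, beside 0.87% of all genes, and for RIPK3 medium 3 of 31, beside 1.14%. On the log2 scale Clec4n rose more in cDC1s, by 1.22 (SE 0.118, adjusted p = 6.90e-07) with BimS and by 1.17 (SE 0.126, adjusted p = 2.43e-06) with RIPK3 medium. In CPM its gain was larger in cDC2s, where its level with WT medium was higher. Clec2i also rose more in cDC1s on the log2 scale, by 0.63 (SE 0.0993, adjusted p = 0.000495) and 1.00 (SE 0.106, adjusted p = 1.43e-06). For Cd69 the RIPK3 response differed by 0.76 (SE 0.162, adjusted p = 0.0111), since it fell in cDC2s and had a log2 value of 0.02 in cDC1s. For Klrk1 the BimS response differed by -0.46 (SE 0.105, adjusted p = 0.0246). The Cd69 difference was lost without cDC1 RIPK3 replicate 1 (0.69, adjusted p = 0.0514) or cDC2 RIPK3 replicate 2 (0.68, adjusted p = 0.120), and the Klrk1 difference without any of 6 samples (-0.48 to -0.42, adjusted p = 0.0504 to 0.0945). With limma on log2(count + 1) both were lost (0.82, adjusted p = 0.0660, and -0.43, adjusted p = 0.563). With the block, 4 of 31 genes passed for each medium, beside 2.32% of all genes for BimS and 2.35% for RIPK3. For Clec4d the difference of the BimS responses was 0.41 (SE 0.131, adjusted p = 0.182), and 0.42 with the block (adjusted p = 0.0322). For Klrk1 the difference of the RIPK3 responses was -0.31 (adjusted p = 0.264), and -0.35 with the block (adjusted p = 0.0116).

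RIPK3 medium (necroptosis) was then compared directly with BimS medium (apoptosis). These media also came from different clones, and the paper reports that cDCs took up more apoptotic than necroptotic debris. Mode of death, clone and amount taken up cannot be told apart here. In cDC1s, 3 of 25 genes passed, 2 higher and 1 lower, beside 4.15% of all genes. Clec4d was lower with RIPK3 medium (log2 fold change -0.29, SE 0.0669, adjusted p = 0.00599), with 43.2 to 46.5 against 52.5 to 57.9 CPM, a call that was lost in 1 fit of all 6 groups (-0.29, adjusted p = 0.125). Cd69 was higher (0.61, SE 0.14, adjusted p = 0.00678), with 6.37 to 7.38 against 4.25 to 4.63 CPM, and was lost with limma on log2(count + 1) (0.52, adjusted p = 0.0886). Clec2i was higher (0.23, SE 0.0558, adjusted p = 0.0124), a call that was lost without BimS replicate 2 (0.20, adjusted p = 0.0633) or RIPK3 replicate 3 (0.16, adjusted p = 0.0651), with limma on log2(count + 1) (0.14, adjusted p = 0.650) and in the fit of 6 groups (0.23, adjusted p = 0.114). For Clec4n the difference was -0.13 (SE 0.0531, adjusted p = 0.209) and for Clec4b2 -0.33 (SE 0.126, adjusted p = 0.159). With the replicate number as a block 8 of 25 genes passed, beside 8.87% of all genes, among them Clec4n at -0.13 (adjusted p = 0.0340), Clec7a at 0.20 (adjusted p = 0.000341), Clec12a at 0.35 (adjusted p = 2.29e-08), Mrc1 at 1.66 (adjusted p = 0.0366) and Ly75 at -0.12 (adjusted p = 0.0278).

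In cDC2s, 0 of 32 genes passed between RIPK3 and BimS medium with edgeR, beside 0.379% of all genes, 5 had an unadjusted p under the threshold, DESeq2 and limma on log2(count + 1) called 1 each, Olr1 in both, beside 0.733% and 0.769% of all genes. The block called 5 of 32, beside 14.3% of all genes, so that the share of these receptors lay near that of all genes. Its RIPK3 values in cDC2s rest on replicates 1 and 2. Since edgeR takes its estimate of the spread partly from other genes, a small p-value there does not measure replication of the gene. The 5 were Ly75 (log2 fold change -0.53, adjusted p = 1.49e-23), Olr1 (-0.73, adjusted p = 9.56e-21), Cd72 (0.80, adjusted p = 5.26e-08), Mrc1 (-0.73, adjusted p = 1.36e-05) and Klrk1 (-0.17, adjusted p = 0.00653). Ly75 read 377, 292 and 228 CPM with WT (replicates 1, 2 and 3), 343, 294 and 232 CPM with BimS and 247 and 203 CPM with RIPK3 medium (replicates 1 and 2). Within a number, the RIPK3 sample was lowest for both. Olr1 read 59.7, 48.5 and 38.4 CPM, 53.3, 50 and 41.9 CPM, and 34.3 and 29.8 CPM in the same order.

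Against WT medium, Olr1 fell in cDC2s with RIPK3 medium (log2 fold change -0.62, SE 0.168, adjusted p = 0.0417), a call that was lost with RLE size factors (-0.60, adjusted p = 0.0516). Mrc1 read 16.3, 11.5 and 9.33 CPM with WT, 10.2, 9.76 and 6.20 CPM with BimS and 6.79 and 5.27 CPM with RIPK3 medium, and fell with RIPK3 medium too (log2 fold change -1.05, SE 0.272, adjusted p = 0.0387). Without RIPK3 replicate 1 or 2 the calls of Olr1 (-0.72 and -0.52), Mrc1 (-1.24 and -0.88) and Klrk1 (-0.28 and -0.48) were lost, with adjusted p between 0.0621 and 0.357, and the same 3 calls were lost without WT replicate 2 (adjusted p = 0.0668 to 0.0955). Without BimS replicate 2, which enters through the shared spread alone, Olr1 (adjusted p = 0.0813) and Mrc1 (0.0599) were lost. With the block, Ly75 fell by 0.57 against WT medium (adjusted p = 3.88e-28), against -0.42 (SE 0.247, adjusted p = 0.460) without it, and Cd72 rose by 0.43 (adjusted p = 0.00533). These block values also rest on RIPK3 replicates 1 and 2 and carry the limit given above.

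**Figure D5:**
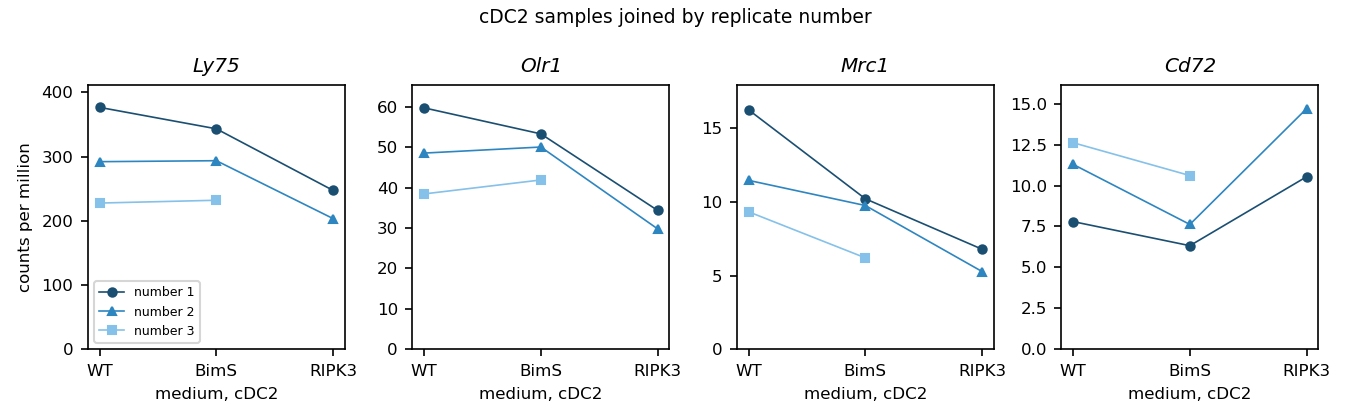
CPM of Ly75, Olr1, Mrc1 and Cd72 in cDC2 samples with WT, BimS and RIPK3 medium, with lines joining samples of the same replicate number (RIPK3 medium has numbers 1 and 2). For Ly75 the samples spread from 228 to 377 CPM with WT medium, while along each line the RIPK3 sample is the lowest.

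Further genes passed in cDC2s with the block and not in the fit without it. With the block 12 of 32 genes passed for each medium against WT, beside 21.3% of all genes for BimS and 21.4% for RIPK3. With BimS medium against WT these were Clec2d (log2 fold change -0.27, adjusted p = 1.61e-07), Klrk1 (-0.16, adjusted p = 0.00181), Clec12a (-0.53, adjusted p = 0.00153), Mrc1 (-0.50, adjusted p = 6.99e-05), Cd72 (-0.38, adjusted p = 0.00608), Clec4a2 (0.53, adjusted p = 0.0186) and Clec7a (0.13, adjusted p = 0.003). With RIPK3 medium they included Clec2d (-0.27, adjusted p = 2.34e-05) and Clec7a (0.16, adjusted p = 0.000857). Clec2d read 118, 111 and 149 CPM in cDC2s with WT, 107, 92.4 and 113 CPM with BimS and 101 and 94.9 CPM with RIPK3 medium, and its log2 fold changes without the block were -0.28 (adjusted p = 0.125) and -0.37 (adjusted p = 0.0584). Some of these calls were also made without the block under other alternatives. Limma on log2(count + 1) called Clec2d (-0.54, adjusted p = 0.00905) and Ly75 (-0.57, adjusted p = 0.00346) with RIPK3 and Mrc1 (-0.57, adjusted p = 0.0395) with BimS medium. That setting does not scale for library size. Its median log2 fold change over all genes was -0.17 with RIPK3 and -0.09 with BimS medium, so falls were called more readily. The fit of 6 groups called Clec2d with both media (adjusted p = 0.0434 and 0.0169), and without cDC2 WT replicate 1 Clec12a passed with BimS (-0.64, adjusted p = 0.0220) and Clec2d with RIPK3 medium (-0.42, adjusted p = 0.0440).

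The other genes passed no test of a medium against WT at the settings used throughout, with or without the block. Clec1a, Clec1b, Clec12b, Mrc2, Clec5a, Clec11a and Clec14a were tested in both cell types, Cd207 in cDC1s and Clec4a3, Clec4b1, Cd209b, Cd209d, Cd209e, Clec4g and Clec2g in cDC2s, and Cd209c in both. Cd207 read 2.54, 3.51 and 2.34 CPM in cDC1s with WT, 5.60, 5.75 and 2.73 CPM with BimS and 2.07, 4.57 and 4.03 CPM with RIPK3 medium, which overlapped (log2 fold changes 0.76, SE 0.358, and 0.35, SE 0.377). The BimS value of Cd207 did pass with no filter (adjusted p = 0.000818), with limma on log2(count + 1) (0.65, adjusted p = 0.0237) and without BimS replicate 3 (1.03, adjusted p = 0.00479). Cd209c, at 0 to 6 counts per cDC1 sample, passed with RIPK3 medium without WT replicate 3 (adjusted p = 0.0321). Cd209e read 0.257, 0.459 and 0.162 CPM in cDC2s with WT and 0.791, 0.559 and 0.656 CPM with BimS medium, without overlap and without passing (1.18, SE 0.537, adjusted p = 0.245). With RIPK3 medium it read 0.647 and 0.117 CPM, which overlapped WT (0.35, SE 0.669, adjusted p = 0.872). Cd209d read 0.257, 0.115 and 0 CPM against 0.365, 0.407 and 0.417 CPM (1.60, SE 0.722, adjusted p = 0.238), and 0.0647 and 0.117 CPM with RIPK3 medium (-0.43, SE 1.06, adjusted p = 0.898). These genes had at most 13 and 8 counts per sample. Clec11a, a secreted growth factor, and Clec14a, an endothelial protein, stayed at 7 and 4 counts or fewer. The 3 genes too rare to measure were Pla2r1 with 2 counts in all 17 samples together, Clec2g with 16 and Colec12 with 8.

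The adaptors, kinases and phosphatases of these receptors were followed as lists. Of 26 adaptors and kinases of activating lectins, 14 were higher and 10 lower in cDC1s than in cDC2s, beside 59.8% of all genes called, with a median log2 fold change of 0.24. Fcer1g, the FcR-gamma chain that carries dectin-2, MCL and Mincle, averaged 13.6 CPM in cDC1s and 92.4 CPM in cDC2s (log2 fold change -2.78, adjusted p = 5.01e-17), and Fgr 1.67 against 19.5 CPM (-3.54, adjusted p = 6.43e-23). Vav1 (2.26) and Vav3 (2.06) were higher in cDC1s. In cDC1s, 2 of the 26 rose and 4 fell with BimS medium, beside 13.2% of all genes called, and 3 rose and 7 fell with RIPK3 medium, beside 16.5%. Fcer1g fell by 0.35 with BimS medium (adjusted p = 0.0152), opposite to Clec4n and Clec4d. With RIPK3 medium in cDC1s, Vav2 fell by 0.70 (13.5 against 21.9 CPM, adjusted p = 2.96e-06), Fgr by 0.67 (1.38 against 2.19 CPM, adjusted p = 0.0492) and Syk by 0.41 (67.4 against 89.9 CPM, adjusted p = 1.14e-06). Vav2 (-0.55, adjusted p = 0.00101) and Syk (-0.37, adjusted p = 8.20e-05) were also lower with RIPK3 than with BimS medium, and the RIPK3 response of Syk differed from that of cDC2s (interaction -0.61, adjusted p = 0.00454). The kinase Tec rose by 0.31 and 0.36 (adjusted p = 9.59e-06 and 4.21e-07). In cDC2s, 3 rose and 2 fell with BimS medium, beside 7.01% of all genes called, and 3 rose and 0 fell with RIPK3 medium, beside 7.21%.

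Of 8 phosphatases and docking proteins of inhibitory lectins, 6 were higher and 2 lower in cDC1s, so that all 8 passed where 59.8% of all genes did. With each medium against WT, 1 rose and 2 fell in cDC1s, beside 13.2% of all genes called with BimS and 16.5% with RIPK3 medium, and 1 rose and 1 fell in cDC2s, beside 7.01% and 7.21%. Inpp5d (SHIP-1) averaged 757 against 233 CPM (log2 fold change 1.70, adjusted p = 1.48e-18) and Ptpn6 (SHP-1) 172 against 45.8 CPM (1.97, adjusted p = 6.81e-08). Inpp5d rose with debris in both cell types, by 0.60 and 0.70 in cDC1s and by 0.88 and 1.09 in cDC2s. In cDC1s, Ptprc (CD45) fell by 0.22 with BimS (adjusted p = 0.000354) and by 0.47 with RIPK3 medium (adjusted p = 2.19e-10), and Inppl1 (SHIP-2) by 0.25 with both (adjusted p = 0.0212 and 0.0224). Ptpn6 fell in cDC2s, by 0.92 and 0.87, and the interactions passed (1.10, adjusted p = 0.000135, and 1.08, adjusted p = 0.000311).

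Of 14 partners and ligands, 11 were tested, with 3 higher and 6 lower in cDC1s, beside the same 59.8%. Klrb1b encodes NKR-P1B, the receptor of the Clec2d product, and fell with debris in both cell types. It averaged 52.5 CPM with WT, 28.4 with BimS and 21.0 with RIPK3 medium in cDC1s (log2 fold changes -0.89 and -1.32, adjusted p = 1.00e-11 and 6.34e-16) and 90.7, 45.4 and 40.7 CPM in cDC2s (-1.0 and -1.16, adjusted p = 0.0246 and 0.0221). Klrc1, the NKG2A chain that pairs with CD94, followed Klrd1 in being lower in cDC1s (0.197 against 3.59 CPM, log2 fold change -4.11). Klrc2, the NKG2C chain that also pairs with CD94, was lower in cDC1s with RIPK3 than with WT medium (0.704 against 1.54 CPM, log2 fold change -1.10, adjusted p = 0.0156). Sema4d, the ligand of CD72, rose with BimS (0.71) and fell with RIPK3 medium (-0.57) in cDC1s and rose with both in cDC2s (0.53 and 0.64). Among the 4 lectins that serve as lineage markers, Clec9a rose in cDC1s with both media (0.26 and 0.24, adjusted p = 0.000169 and 0.000302), and Clec10a (-0.98, adjusted p = 0.000558) and Cd209a (-0.50, adjusted p = 0.0199) fell in cDC2s with RIPK3 medium.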

How the data were processed

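Sorted mouse splenic cDC1s and cDC2s were measured by bulk RNA-seq of polyadenylated RNA in 17 samples. The authors deposited counts per gene identifier, made after adapter trimming with SeqPurge and alignment with STAR (2.7.10a in the submitters' processing notes) to GRCm39 with Ensembl annotation. Whether counting used strand is not given in the sources used here. A deposited table of normalized log2 values was not used. Of 31239 lines, 148 held no identifier and were left out. Identifiers were matched to GENCODE M39 (30854 of 31091). The members and lists were chosen with earlier results of these data known.

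Counts were tested in R 4.3.3 with edgeR 4.0.16 (TMM, robust quasi-likelihood F-test, Benjamini-Hochberg over all genes tested, threshold 0.05), a departure from the study's limma fit, which was run as an alternative. Genes with a count in at least 50% of the samples of a fit were kept. Cell types were compared over all 17 samples with medium as a term, media within each cell type (9 and 8 samples), and responses between cell types as an interaction of 6 groups. Every member is accounted for, with values in every sample for members that passed, or the lowest, median and highest over a cell type. Of each list, at most 4 genes per comparison were named, in order of the size of the change among those that passed with an average of at least 1 CPM. The scripts were tested on simulated data. A floor of 3 counts was used for bounds, and count ratios carry exact 95% intervals.

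Samples with the same replicate number deviated together within a cell type (16 of 16 pairs with a correlation over 0.1, median 0.347, against 4 of 32 pairs with different numbers), so a fit with the number as a block is given where it changes a call of a member. No block values are given for genes of the other lists. The labels do not say what a number shares. The other alternatives were RLE size factors, 2 other filters, DESeq2 1.42.0, limma 3.58.1 on log2(count + 1) and on log2 CPM, each sample left out, WT medium alone and 1 fit of 6 groups. The values of log2(count + 1) were not scaled for library size.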

Additional observations from a re-analysis of the deposited data

Results flagged for a closer look

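Responses to medium of dying cells differed between cDC1s and cDC2s by the interaction test of edgeR for 4 genes. The log2 difference, cDC1s less cDC2s, was 1.22 with BimS and 1.17 with RIPK3 medium for Clec4n, and 0.63 with BimS and 1.00 with RIPK3 medium for Clec2i. It was 0.76 for Cd69 with RIPK3 medium and -0.46 for Klrk1 with BimS medium.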

How the results depend on the processing

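No call of a single member gene changed its direction. The calls of genes in the adaptor, phosphatase, partner and lineage marker lists were not compared between alternatives. Over 65 gene results and 1331 alternatives, 54 alternatives lost significance, in 15 results. Of 172 alternatives for the counts of members that passed, 159 stayed within 1.5 times. With the replicate number as a block, 8 members passed between RIPK3 and BimS medium in cDC1s (3 without it), 12 between BimS and WT medium in cDC2s (5 without it) and 5 between RIPK3 and BimS medium in cDC2s (0 without it). In the last comparison no filter gave 2, DESeq2 1, limma on log2(count + 1) 1 and 1 fit of 6 groups 1. The single fit gave 1 between RIPK3 and BimS medium in cDC1s, and no filter gave 5 for the BimS interaction. The cause was not tested. With each sample left out, 25 to 26 members passed between the cell types, 8 to 11 for BimS and 7 to 9 for RIPK3 against WT medium and 2 to 4 for RIPK3 against BimS in cDC1s, 4 to 5, 4 to 9 and 0 to 1 in cDC2s, and 2 to 4 for each interaction. The lowest value, 4 for RIPK3 against WT in cDC2s, came without either RIPK3 sample, where the lone sample is assumed to vary like the other groups, and the 1 came without cDC2 WT replicate 1 or 3.

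Over all genes, limma on log2(count + 1) called 1510 for BimS against WT in cDC1s (2576 in edgeR). For RIPK3 against BimS in cDC1s (810), limma called 403, the block 1730 and the single fit 269, and samples left out gave 489 to 1027. In cDC2s the block called 4103 for BimS (1349) and 4126 for RIPK3 against WT (1387), the single fit 2143 and 2104, and samples left out gave 783 to 1504 and 622 to 1819. For RIPK3 against BimS in cDC2s (73), filterByExpr called 46, no filter 300, DESeq2 141, limma 148, the block 2755 and the single fit 244, and samples left out gave 0 to 214. For the interactions (166 and 217), no filter called 315 and 371, limma 67 and 109 and the block 443 and 449, DESeq2 called 261 for BimS, and samples left out gave 93 to 234 and 111 to 258. Klrk1 between cell types was lost with limma on log2(count + 1) (-0.17, adjusted p = 0.0504). Mrc1 in cDC1s and Cd209d and Cd209e in cDC2s had at most 16, 8 and 13 counts per sample, which limits the precision of their values.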
